A study of Homo sapiens with 18 samples.

Results

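The cytosolic ribosomal protein genes were followed as 1 module of 84 genes, 31 coding for proteins of the small (40S) subunit and 53 for proteins of the large (60S) subunit, among 40916 gene symbols counted. A gene belonged to the module when its symbol was RPL or RPS followed by a number, with or without the letters that mark paralogs (such as RPL22L1 or RPL36AL), or was RPLP0, RPLP1, RPLP2 or RPSA. RPS27L was left out and is given for comparison. No expression value entered this rule, though earlier results of these data were known when the members were chosen.

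The ribosome is the particle that translates mRNA into protein. Its small subunit reads the message, and its large subunit joins the amino acids. Most mRNAs for its proteins begin with a C followed by an unbroken stretch of C and T, the 5′ terminal oligopyrimidine (TOP) motif, through which mTOR and the binding protein LARP1 control their translation. When ribosome assembly is disturbed, free RPL5 and RPL11 bind MDM2, a ubiquitin ligase. A few ribosomal proteins have paralogs (RPL22L1, RPL26L1, RPL7L1, RPL36AL, RPL39L, RPL3L and RPL10L), some of which replace the usual protein in particular tissues.

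Polyadenylated RNA came from MCF10A, HCT116 and mixed cultures of both. The MCF10A line comes from mammary epithelium and is not transformed. It expressed histone H2B-GFP and was grown with horse serum, EGF, hydrocortisone, cholera toxin and insulin. HCT116 is a colon carcinoma line, here unlabelled, grown in McCoy's 5A medium with fetal bovine serum. The mixed cultures combined the lines, 50% of each, and their medium is not given in the sources used here. Each culture was left non-irradiated (NIR) or received 10 Gy (IR), with 3 biological replicates in each of the 6 groups. The titles give the harvest as day 2, and the series description gives 72 h after irradiation. The lines differ in tissue, transformation and medium, and these cannot be told apart in a comparison of lines.

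Libraries held 25.7 to 40.8 × 1000000 counts, of which 0.992 to 1.96 × 1000000 fell on the module, so counting error was small for most members: 73 of the 84 averaged over 100 CPM (counts per 1000000 counts) across the 18 libraries. Between 82 and 83 members had a count in each library. The 10 basal mammary markers summed to 11183 CPM in MCF10A NIR and 882 CPM in HCT116 NIR. They summed to 910.0 CPM in Mixed NIR and 1817 CPM in Mixed IR, and KRT5 averaged 0.724 and 2.72 CPM there against 2883 CPM in MCF10A NIR. The mixed libraries were therefore close to HCT116 in these markers. Of the 10 intestinal markers, KRT19, EPCAM and CDX2 were present in HCT116 NIR (886, 315 and 10.0 CPM), whereas CDX1 was at 0 and VIL1, LGALS4, CDH17 and GPA33 were under 1 CPM.

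The annotated first transcribed bases of selected members are shown because the TOP motif sits there. RefSeq promoters (GRCh38.p14) were found for 67 of the 84 members. A pyrimidine run was defined as a C followed by at least 5 bases that are each C or T, on the sense strand, with its first C within 5 bases of the annotated start. It was present in 48 of the 67 members (71.6%) and in 11.0% of all 27305 promoters. Each sequence below runs 5′ to 3′ on the gene's strand, from 20 bases before the start to the first 20 transcribed bases, with the run in capitals. The first 5 are 2 paralog pairs and RPL7L1, all of which differed between the lines in their response to irradiation. The last 4 are members that rose (RPL27A, RPL39) or fell (RPS14, RPSA) after irradiation of HCT116.
RPL22, chr1:6199576-6199615, minus strand: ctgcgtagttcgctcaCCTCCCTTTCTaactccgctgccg
RPL22L1, chr3:170870176-170870215, minus strand: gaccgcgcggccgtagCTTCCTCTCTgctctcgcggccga
RPL26, chr17:8383174-8383213, minus strand: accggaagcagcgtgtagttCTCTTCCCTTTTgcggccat
RPL26L1, chr5:172958709-172958748, plus strand: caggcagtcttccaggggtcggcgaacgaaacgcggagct
RPL7L1, chr6:42879596-42879635, plus strand: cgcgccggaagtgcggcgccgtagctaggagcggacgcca
RPL27A, chr11:8682772-8682811, plus strand: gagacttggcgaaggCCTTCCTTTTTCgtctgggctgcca
RPL39, chrX:119791611-119791650, minus strand: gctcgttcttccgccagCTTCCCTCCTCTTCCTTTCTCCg
RPS14, chr5:150449720-150449759, minus strand: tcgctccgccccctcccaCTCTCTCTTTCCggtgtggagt
RPSA, chr3:39406700-39406739, plus strand: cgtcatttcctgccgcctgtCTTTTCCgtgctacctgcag
RPL22 and its paralog RPL22L1 both held a run, of 11 and 10 bases. RPL26 held one of 12 bases, and no run was found in these windows of RPL26L1 and RPL7L1. Among paralog members, 2 of 5 with a RefSeq entry held a run, against 46 of 62 other members.

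The module took its largest share of counts in HCT116 and its smallest in irradiated MCF10A. In MCF10A NIR the 3 libraries gave 3.97%, 4.50% and 4.08% of counts to the 84 genes, and in MCF10A IR 3.65%, 3.76% and 3.60%. The groups did not overlap. In HCT116 the shares were 4.73%, 5.13% and 5.39% without irradiation and 4.86%, 4.80% and 4.66% after it, which overlapped. In the mixed cultures they were 4.61%, 4.86% and 4.51%, then 4.35%, 4.24% and 4.38%, without overlap. Group means were 4.18% ± 0.280, 3.67% ± 0.0855, 5.09% ± 0.330, 4.77% ± 0.0993, 4.66% ± 0.182 and 4.33% ± 0.0723 in the same order (SD, n = 3, as for all ± values here).

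Mitochondrially encoded transcripts took a larger part of counts after irradiation: 5.19% and 6.20% in MCF10A, 8.62% and 12.0% in HCT116, and 8.54% and 12.3% in the mixed cultures. With these left out of the total, the module's mean share was 4.41% and 3.91% in MCF10A, 5.57% and 5.42% in HCT116, and 5.09% and 4.93% in the mixed cultures, and only MCF10A kept groups that did not overlap. The balance between subunits moved little. The 40S members took 36.2% to 37.6% of the module's counts over all 18 libraries. In bulk libraries, less of these RNAs per cell and fewer cells rich in them cannot be told apart.

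**Figure D1:**
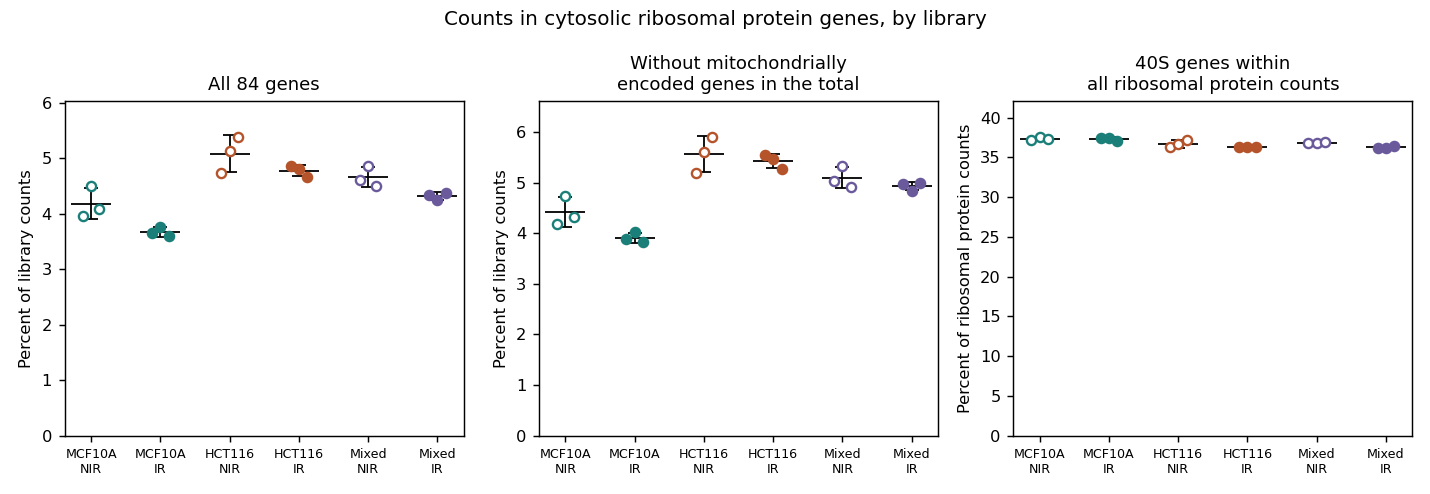
Share of library counts in the 84 ribosomal protein genes (left), the same with mitochondrially encoded genes left out of the total (middle) and the percent of the module's counts in 40S genes (right). Points are libraries (open NIR, filled IR), and bars are means with SD over 3 libraries. MCF10A IR lies lowest, at 3.60% to 3.76% on the left, and the 40S share stays between 36.2% and 37.6%.

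In MCF10A, irradiation lowered most of the module by a small amount. Of 82 members tested, 70 fell and 0 rose, and all 12 others had adjusted p-values of 0.05 or more. Over all genes tested, 55.4% were called, 29.2% lower and 26.2% higher. The members' median log2 fold change was -0.22, against 0.00 over all genes, so the typical member lost little. At an unadjusted p under 0.05, 71 were lower and 0 higher, and 3 were called higher with upper-quartile factors or without MCF10A NIR replicate 2. In CPM, 55 members had IR libraries all under the NIR libraries, and RPL28 alone had them all above. The same was not counted over all genes, so these counts have no share to be read against. Both subunits took part: 24 of 31 40S members and 46 of 51 tested 60S members fell, with medians of -0.21 and -0.22.

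The larger decreases were in a few members, several of them paralogs. RPL22L1, the paralog of the RNA-binding protein RPL22, was at 114, 130.2 and 116 CPM in MCF10A NIR and at 52.2, 49.3 and 50.4 CPM in MCF10A IR. The groups stood far apart, with a log2 fold change of -1.27 (SE 0.0585, edgeR adjusted p 1.4e-16). RPL22 itself was at 94.1, 93.7 and 91.1 CPM, then 83.1, 78.3 and 80.8 CPM, also without overlap but with a smaller log2 fold change of -0.23 (SE 0.0511). RPL22L1 thus went from 56.3% ± 1.69 to 38.5% ± 0.112 of the counts of the pair.

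RPL26L1, the paralog of RPL26, was at 39.5, 40.1 and 36.0 CPM and then at 23.4, 25.5 and 24.6 CPM. It fell by 0.67 on the log2 scale (SE 0.0781, edgeR adjusted p 2.4e-08). RPL26 itself was at 26.9, 27.2 and 27.6 CPM and then at 17.6, 19.2 and 19.5 CPM, a log2 fold change of -0.56 (SE 0.0862). As RPL26 and RPL26L1 fell together, the paralog's part of the pair stayed near 58.5% ± 1.66 and 56.7% ± 0.735. In GENCODE v29 another gene on the same strand covers 38.7% of the RPL26 transcript. The level of RPL26 and this split are therefore uncertain. RPL23A, a 60S protein near the exit of the nascent chain, had a log2 fold change of -0.44 (SE 0.0615).

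Members with further known roles are given by name. The MDM2-binding proteins RPL5, RPL11 and RPL23 fell by 0.32, 0.16 and 0.22 on the log2 scale. The stalk proteins RPLP0, RPLP1 and RPLP2, which bind the elongation factors, had log2 fold changes of -0.21, -0.13 and -0.20. RPLP1 was not called in DESeq2, with upper-quartile factors, in a fit of all 18 libraries, or without NIR replicate 2 or IR replicate 1. RPLP2 was not called with upper-quartile factors or in the fit of all 18 libraries, and RPL11 was not called with upper-quartile factors. The log2 fold changes of RPS6, a substrate of the S6 kinases, and RPSA, also known as the laminin receptor, were -0.29 and -0.33. Of the 19 genes mutated in Diamond-Blackfan anaemia, an inherited failure of red cell production, 17 fell. This share (89.5%) is near the 85.4% of all tested members. The other 2 were RPS10 (-0.46, SE 0.262) and RPS19 (-0.01, SE 0.0638), neither called. RPS27L, outside the module, went the other way, from 69.8 ± 6.13 to 94.7 ± 5.81 CPM (log2 fold change 0.42, SE 0.0628, edgeR adjusted p 1.9e-06).

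In HCT116, irradiation moved members in both directions. Of 81 tested, 13 rose and 19 fell, and the median log2 fold change was -0.02, against 0.01 over all genes. These shares (16.0% and 23.5%) were below those over all genes, of which 52.5% were called, 25.3% higher and 27.2% lower. The counts depended on single libraries: without HCT116 NIR replicate 1, 5 members were called higher, and without NIR replicate 3, 28 were. Without IR replicate 1 or 2 the count was 7 or 8, and 11 were called lower without IR replicate 3.

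The risers included 4 of the paralogs. RPL7L1, a paralog of RPL7 with a part in pre-rRNA processing, was at 193, 201 and 202 CPM in HCT116 NIR and at 261, 264 and 269 CPM in HCT116 IR, with no overlap (log2 fold change 0.42, SE 0.0559, edgeR adjusted p 1.0e-06). RPL22L1 went from 137.5, 147.7 and 153 CPM to 166, 178 and 159 CPM, a log2 fold change of 0.21 (SE 0.0641, edgeR adjusted p 0.0086). RPL26L1 had a log2 fold change of 0.29 (SE 0.102) and RPL36AL, the paralog of RPL36A, one of 0.20 (SE 0.064). None of RPL22L1, RPL26L1 and RPL36AL was called without HCT116 NIR replicate 1, nor RPL22L1 and RPL26L1 without IR replicate 2, nor RPL26L1 without IR replicate 1.

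Among the usual proteins, RPL23A gave the largest increase, but its libraries were spread: 163, 189.9 and 264 CPM in HCT116 NIR and 300.1, 259 and 286 CPM in HCT116 IR. The groups overlapped, and the log2 fold change of 0.46 (SE 0.108, edgeR adjusted p 0.0011) had an adjusted p of 0.072 in DESeq2. RPL27A, a 60S protein, was at 468, 539 and 643 CPM, then 744, 687 and 684 CPM, without overlap (log2 fold change 0.37, SE 0.0799). RPL37 and RPL39, small 60S proteins, had log2 fold changes of 0.27 and 0.24, and RPL22 one of 0.24, and RPL39 was not called without NIR replicate 1 or 2 or IR replicate 1 or 2. The other risers were RPS13, RPS23, RPS27 and RPL17. RPS27 was not called in DESeq2, nor without NIR replicate 1, NIR replicate 2 or IR replicate 1.

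RPL8, a 60S protein near the peptidyl transferase centre, fell most in HCT116. It was at 1472, 1472 and 1389.9 CPM and then at 1025, 1005 and 995 CPM, with a log2 fold change of -0.51 (SE 0.0509, edgeR adjusted p 1.2e-08). RPS14, the 40S protein whose loss is tied to the anaemia of deletion 5q myelodysplastic syndrome, went from 749, 795 and 739 CPM to 531, 600.2 and 586 CPM, with no overlap (log2 fold change -0.40, SE 0.0577, edgeR adjusted p 3.1e-06). RPL10, which joins the 60S subunit late in its assembly, had a log2 fold change of -0.35 (SE 0.0585).

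RPL5 also fell, from 1144, 1176 and 996 CPM to 858, 922 and 875 CPM (log2 fold change -0.31, SE 0.0596, edgeR adjusted p 0.00012). Its partner RPL11 was not called (0.06, SE 0.0595), nor was RPL23 (-0.02, SE 0.0559). Of the stalk proteins, RPLP0 had a log2 fold change of -0.17 (SE 0.0595) and was called, though not without NIR replicate 2 or 3 or IR replicate 2 or 3, whereas RPLP1 (-0.02) and RPLP2 (0.14) were not. RPS27L also rose here, with means of 69.4 ± 2.91 and 154 ± 9.84 CPM and a log2 fold change of 1.16 (SE 0.0665, edgeR adjusted p 1.0e-12).

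**Figure D2:**
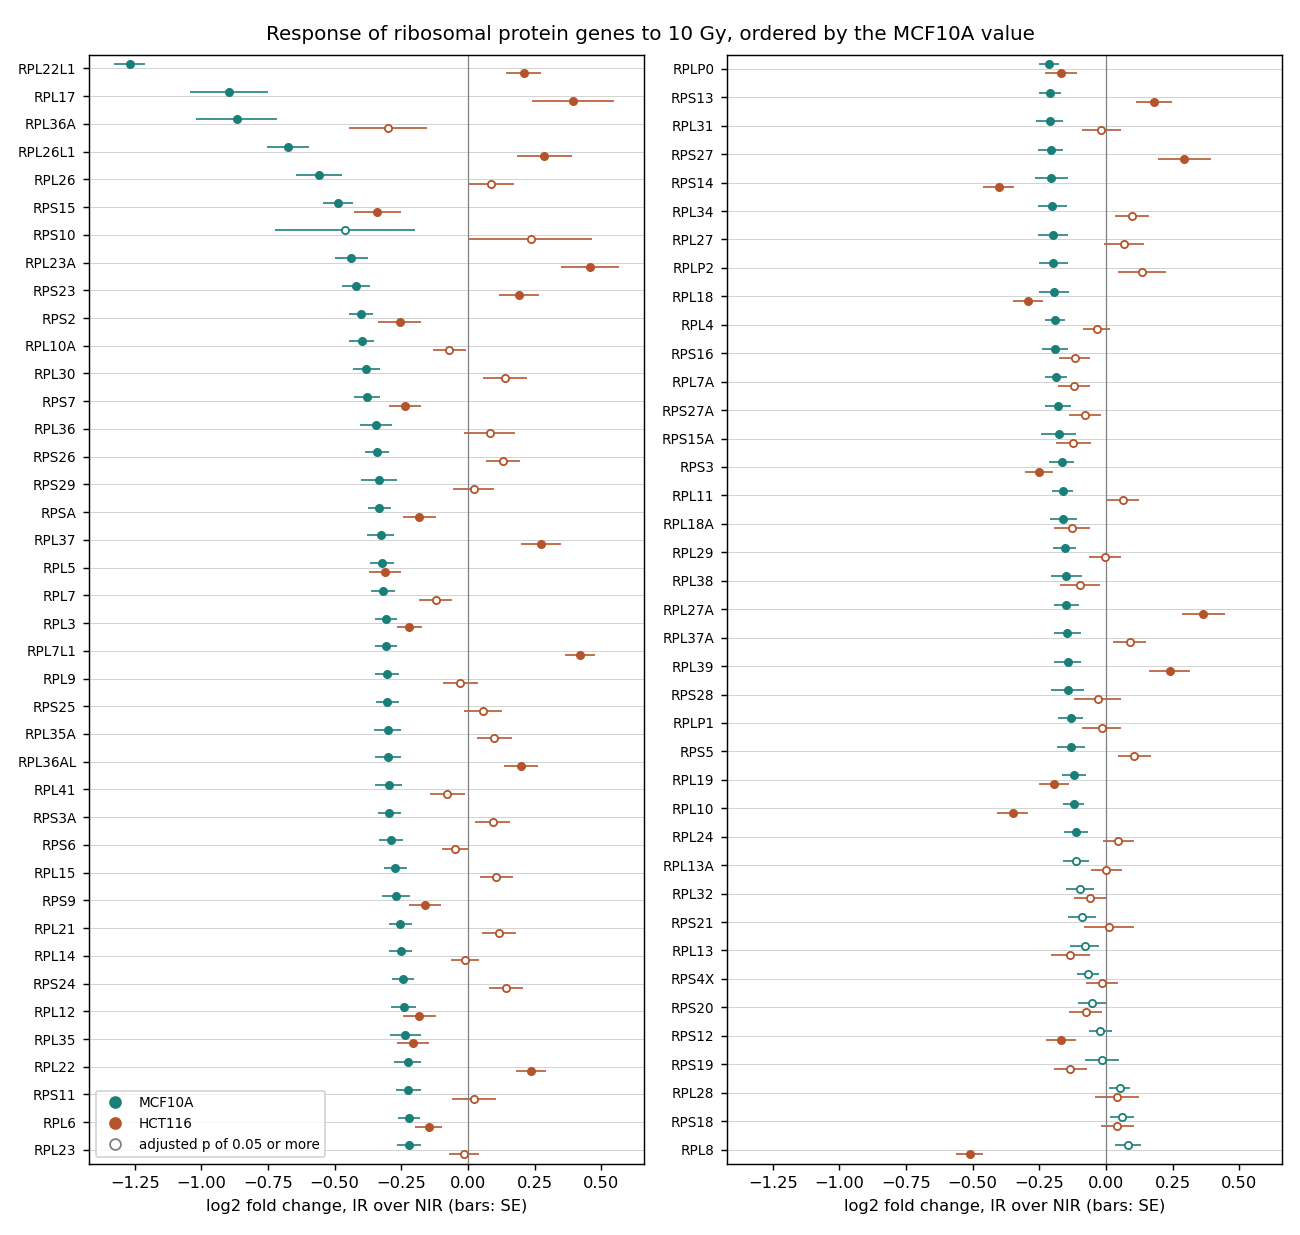
Log2 fold change with IR over NIR for members tested in both monocultures, ordered from top left to bottom right by the MCF10A value. Points are fitted values with SE bars, and open points have adjusted p of 0.05 or more. Most MCF10A points lie left of 0, from -1.27 for RPL22L1, and HCT116 points lie on both sides, from -0.51 for RPL8 to 0.46 for RPL23A.

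The difference between these responses was tested directly over the 12 monoculture libraries, as the HCT116 response minus the MCF10A response. Of 83 members tested, 25 differed toward HCT116 and 5 toward MCF10A. Over all genes tested, 37.3% differed, 15.4% upward and 21.9% downward, and their median was -0.10, against 0.12 for the members. Libraries were scaled anew in this fit, so its values need not equal the difference of the separate fits. Scaling moves all genes alike, and without MCF10A IR replicate 1, 2 or 3 the median over all genes was 0.01. The counts in each direction and small differences therefore depend on the scaling. Leaving mitochondrially encoded genes out of the table gave 40 and 3 members, with a median over all genes of -0.01, and a fit of all 18 libraries gave 40 and 2. Without MCF10A IR replicate 2, 39 members differed upward and 1 downward. The small downward count of 5 was 9 without MCF10A NIR replicate 2 and 8 without HCT116 NIR replicate 1. It was 3 without MCF10A NIR replicate 1, MCF10A IR replicate 1 or HCT116 NIR replicate 2, and 2 without MCF10A IR replicate 3 or HCT116 IR replicate 2.

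RPL22L1 had the largest difference, 1.40 on the log2 scale (SE 0.0894, edgeR adjusted p 6.3e-12). The differences of RPL26L1, RPL23A and RPL7L1 were 0.88, 0.82 and 0.65. RPL8 differed most in the other direction, by -0.67 (SE 0.0755, edgeR adjusted p 1.0e-07). In MCF10A its libraries were at 903, 1084 and 979 CPM without irradiation and at 1022, 1079 and 1088 CPM after it, which overlapped. RPL10, RPS14 and RPS12 also had negative differences, of -0.31, -0.28 and -0.23. RPS14 (SE 0.098, edgeR adjusted p 0.028) was not called without MCF10A NIR replicate 1, any MCF10A IR replicate, HCT116 NIR replicate 2, or HCT116 IR replicate 1 or 2. Its call was also lost with library size only, without mitochondrially encoded genes, in DESeq2 and in a fit of all 18 libraries. RPL10 was not called without MCF10A IR replicate 2 or 3 or HCT116 IR replicate 2, and its value ran from -0.36 to -0.17 when 1 library was left out.

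All 13 members that rose in HCT116 fell in MCF10A. Of the 19 that fell in HCT116, 17 also fell in MCF10A, and the other 2 were RPL8 and RPS12. Of all members tested in MCF10A 85.4% fell, against 29.2% of all genes. Both overlaps (100% and 89.5%) are thus near the share of any members. Across the 81 members tested in both lines, the 2 responses had a Pearson correlation of -0.30 (Spearman -0.26), whereas across 14091 genes it was 0.34 (Spearman 0.34). These are descriptions across genes that share libraries and library scaling.

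**Figure D3:**
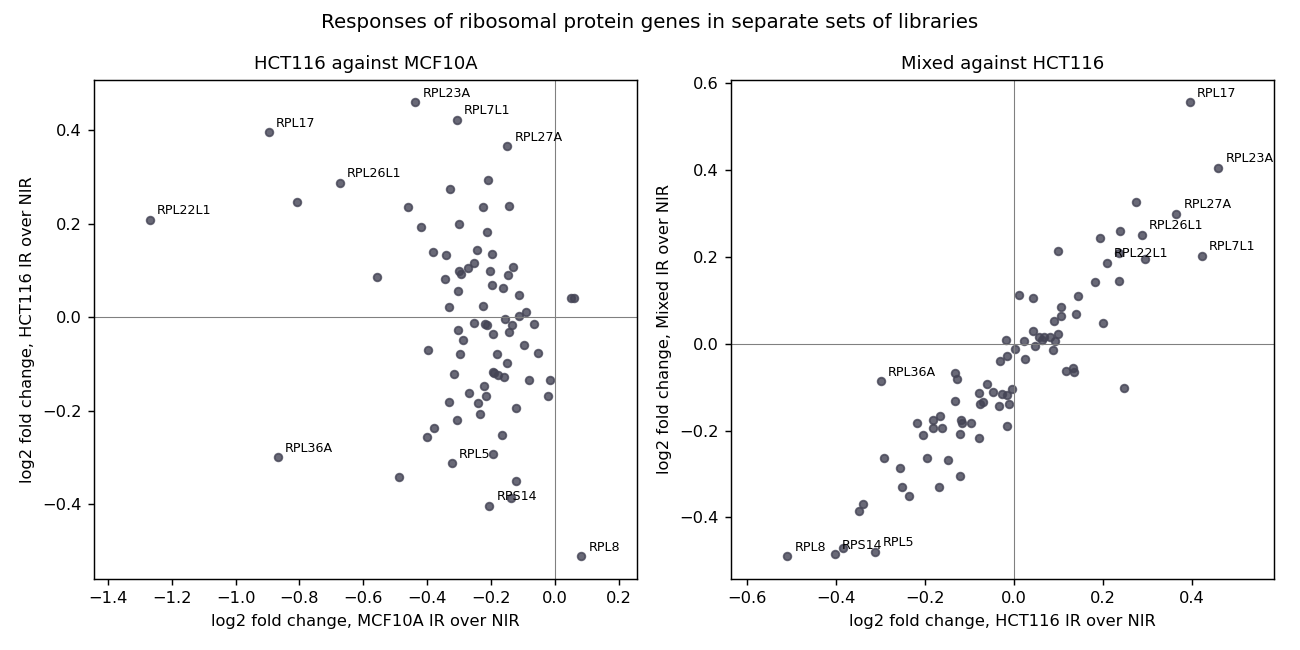
Log2 fold change after irradiation for each member in HCT116 against MCF10A (left) and in mixed cultures against HCT116 (right), with 81 members in each panel. Members lie mostly left of 0 and spread up and down in the left panel (Pearson -0.30), and along a rising diagonal in the right panel (Pearson 0.91).

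In the mixed cultures 13 of 82 members rose and 29 fell, with a median log2 fold change of -0.07 against 0.01 over all genes. Over all genes tested, 49.4% were called, 24.0% higher and 25.4% lower. RPL8 was at 1350.2, 1471 and 1146.5 CPM and then at 982, 937 and 959.9 CPM (log2 fold change -0.49, SE 0.0675, edgeR adjusted p 3.5e-06). RPL5 was at 1077, 1125 and 896 CPM and then at 755, 757 and 751 CPM (-0.48, SE 0.0655), and the groups of both genes stood apart. RPS14 had a log2 fold change of -0.48 and RPL10 one of -0.39.

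RPL23A (0.41, SE 0.0896), RPL37 (0.33, SE 0.0537) and RPL27A (0.30, SE 0.0525) led the members that rose. RPL22L1 and RPL7L1 had log2 fold changes of 0.19 and 0.20. RPL22L1 was at 144, 139 and 117 CPM and then at 146, 155 and 162 CPM, so the groups just missed each other, and it was not called without Mixed NIR replicate 3, IR replicate 2 or IR replicate 3.

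Mixed and HCT116 libraries are separate, and 12 of the 13 members that rose in HCT116 rose in the mixed cultures (92.3% of each list), RPL36AL being the exception. All 19 that fell in HCT116 fell in the mixed cultures, where they made up 65.5% of the 29. Over all genes, 4269 rose and 4577 fell in HCT116, and 3148 and 3574 of them did so in the mixed cultures too. Most called genes were thus shared in general, and not only members. The correlation of the 2 responses was 0.91 over 81 members and 0.83 over 16344 genes. No member's response differed between mixed and HCT116 cultures with edgeR (0 of 82, with 2 at an unadjusted p under 0.05, and 1 lower in DESeq2). Over all genes tested, 0.681% differed upward and 0.149% downward.

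Without irradiation, 0 of 81 members differed in level between mixed and HCT116 cultures with edgeR, whereas 19 had an unadjusted p under 0.05, 17 of them lower, and DESeq2 called 2 lower. Over all genes tested, 0.887% were called higher and 1.15% lower. With no filter on low counts 9 members were called lower, and without HCT116 NIR replicate 1, 5 were.

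After irradiation, 40 of 82 members were lower in Mixed IR than in HCT116 IR and 0 were higher, whereas over all genes tested 8.56% were called, 3.48% lower and 5.08% higher. The members' median difference was -0.15 on the log2 scale. RPL5 was at 858 to 922 CPM in HCT116 IR and at 751 to 757 CPM in Mixed IR (-0.24, SE 0.0441, edgeR adjusted p 0.00043). The differences of RPS27, RPL23 and RPS29 were -0.29, -0.28 and -0.26. The count rested on a few libraries, being 11 without Mixed IR replicate 2, 22 without Mixed IR replicate 3, 25 without HCT116 IR replicate 2 and 5 in a fit of all 18 libraries. The basal mammary markers summed to 1817 CPM in Mixed IR and 1729 CPM in HCT116 IR, and their part in these differences was not tested.

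Between the lines without irradiation, members differed in both directions. Of 82 tested, 24 were higher in HCT116 and 20 lower, against 38.7% and 36.1% of all genes tested (74.8% in either direction). This split followed the scaling of the libraries: with upper-quartile factors or library size only, 47 members were higher and 6 lower, and the median of all genes moved from 0.05 to 0.25. RPL23 turned from -0.15 to 0.05 on the log2 scale under both. Without MCF10A NIR replicate 1, 15 were higher, and without HCT116 NIR replicate 3, 33 were lower.

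RPL13, a 60S protein, was at 438, 526 and 422 CPM in MCF10A NIR and at 739.7, 817 and 933 CPM in HCT116 NIR, a log2 difference of 0.65 (SE 0.0861, edgeR adjusted p 2.4e-06). RPL38, which supports translation of homeobox mRNAs in mouse embryos, and RPL7 were higher by 0.62 and 0.55. RPS14 was lower in HCT116, at 749, 795 and 739 CPM against 927, 1224 and 1111 CPM, without overlap (-0.71, SE 0.0763, edgeR adjusted p 1.4e-07). RPL26L1 (-0.86) and RPL7L1 (-0.68) were also lower. The log2 difference of RPS4X, the X-linked form of its 40S protein, was -0.31, which was not called under upper-quartile factors or library size only.

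After irradiation 47 of 82 members were higher in HCT116 IR than in MCF10A IR and 9 lower, against 38.1% and 36.8% of all genes tested (74.9% in either direction), with a median difference of 0.16 against 0.04. With library size only, 74 were higher and 2 lower, and the median of all genes was 0.27. RPL22L1 was highest by fold, at 159 to 178 CPM against 49.3 to 52.2 CPM (log2 difference 1.50, SE 0.0575, edgeR adjusted p 3.0e-18). RPL30 and RPL7 were higher by 0.79 and 0.68 on the log2 scale. RPS14 was lower, at 531 to 600.2 CPM against 915 to 1012 CPM (-0.97, SE 0.0506). These 2 line comparisons use different libraries, and the change between them was tested as the response difference given above.

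The 7 paralogs ranged from abundant to near 0. RPL39L, a paralog of RPL39 known from testis, was counted in MCF10A: 134, 170 and 144 counts in NIR and 54, 56 and 74 counts in IR. In CPM it was at 3.94, 4.79 and 4.92, then at 1.98, 2.04 and 2.18, and it fell by 1.16 on the log2 scale (SE 0.215, edgeR adjusted p 4.3e-05). HCT116 had 0 counts in all 6 libraries. Against a floor of 3 counts over a group's 3 libraries, RPL39L was at least 143-fold lower in HCT116 NIR and at least 68.5-fold lower in HCT116 IR, or at least 71.5-fold and 34.3-fold if each fragment was counted as a pair of mates. These bounds cover counting error only. Of the 6 mixed libraries, 5 had 0 counts and Mixed IR replicate 3 had 4.

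RPL22L1 and RPL22 held nearly even counts in the other 5 groups, where RPL22L1 took a mean of 54.6% to 56.3% of the pair, against 38.5% in MCF10A IR. RPL7L1 took 18.6% ± 1.11 of its pair with RPL7 before irradiation of MCF10A and 18.7% ± 0.559 after it. In HCT116 it took 8.89% ± 0.382 and then 12.5% ± 0.861, without overlap. RPL36AL took 89.8% to 95.4% of its pair in every library. This split is uncertain, as another gene on the same strand covers 77.6% of the RPL36A transcript in GENCODE v29. RPL3L, a paralog of heart and skeletal muscle, had 0 to 22 counts per library, and RPL10L, known from testis, had 4 counts in HCT116 IR replicate 3 and 0 in the other libraries. Neither was tested within MCF10A or within HCT116. RPL3L was tested for the response difference between them and not called (-1.45, edgeR adjusted p 0.417). Close copies can exchange or lose reads in counting, and how such reads were handled is not given in the sources used here.

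**Figure D4:**
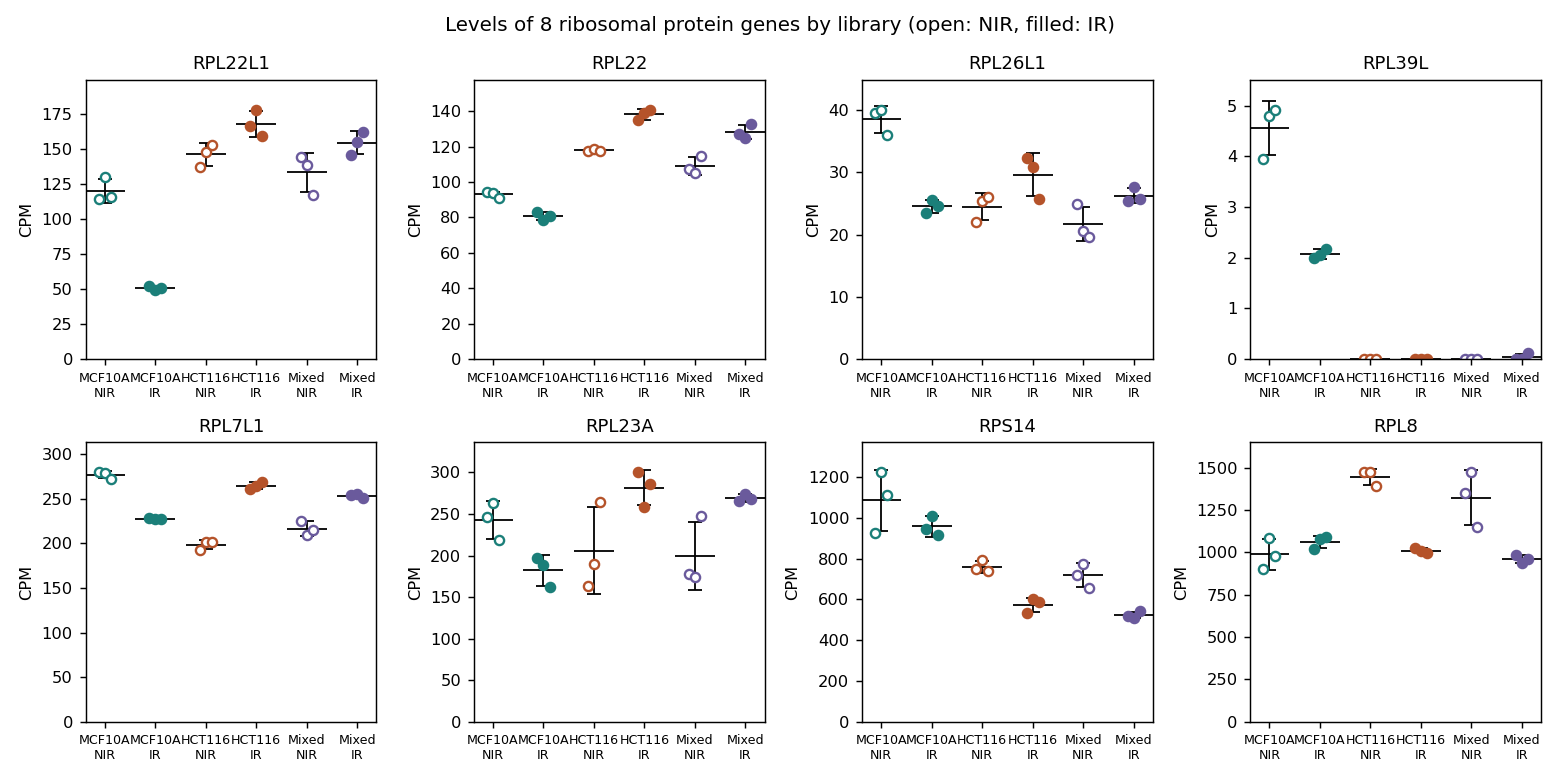
CPM of 8 members by library (open NIR, filled IR; bars are means with SD, n = 3). RPL22L1 drops to about 50 CPM in MCF10A IR alone, RPL39L is counted in MCF10A and in 1 mixed library, RPL7L1 is lower in MCF10A IR and higher in HCT116 IR than in the NIR groups, and RPS14 and RPL8 are lower in irradiated HCT116 and mixed cultures.

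A few members had far fewer counts than their partners in the ribosome, and for these annotation matters. RPL10L, RPL17, RPL36A, RPL39L, RPL3L and RPS10 were under 15 CPM in every group. In GENCODE v29, other genes on the same strand cover 88.0% of the RPS10 transcript, 77.6% of RPL36A and 76.3% of RPL17. In each the overlapping gene is a read-through with its neighbour (RPS10-NUDT3, RPL36A-HNRNPH2 and RPL17-C18orf32), and all 3 read-through symbols were listed at 0. The levels of these 3 members are uncertain, as are the MCF10A log2 fold changes of RPL17 (-0.90) and RPL36A (-0.87). RPL17 and RPL36A were picked out here after their values were seen. The level of RPL26, covered to 38.7% by another gene, is uncertain as well. Symbols of ribosomal protein pseudogenes took 0.0242% to 0.0597% of counts.

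Per kilobase of the principal GENCODE transcript, RPS2, RPL3 and RPL7 had the highest mean levels over the 18 libraries, at 1727, 1634 and 1467 CPM per kb. Where several transcripts ranked equally, the longest was used, such as 7686 bases for RPL37 and 7072 for RPL14. A longer transcript lowers the value per kb, so this order depends on the transcripts chosen. RPL26L1 had 37.1 and RPL26 29.6 CPM per kb, the latter uncertain because of the overlap given above. Of the 84 members, 12 lie on chromosome 19 and 9 on chromosome 3. The gene of RPL22L1 (ENSG00000163584) spans chr3:170864875-170870483 on the minus strand and that of RPL26L1 (ENSG00000037241) chr5:172958729-172969771 on the plus strand in GRCh38.

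Lists of genes that act with the ribosome were read against the shares called over all genes: 29.2% lower and 26.2% higher in MCF10A, 27.2% and 25.3% in HCT116, and 21.9% and 15.4% for the response difference. Whether a list differs from the ribosomal proteins was not tested. Of 32 ribosome biogenesis factors, 28 fell and RRP12 rose in MCF10A, with a median log2 fold change of -0.52. FBL, the methyltransferase of box C/D snoRNPs, had a log2 fold change of -1.33, GAR1 of box H/ACA snoRNPs one of -1.14 and LYAR, a nucleolar factor, one of -1.04. In HCT116, 20 rose and 4 fell, with a median of 0.30. PNO1 and NOP2, which act in 40S and 60S maturation, and RRS1 had log2 fold changes of 1.05, 1.04 and 0.99, whereas FBL had one of -0.47. NOP2 averaged only 1.59 CPM in HCT116 NIR. The response differed toward HCT116 for 30 of the 32 and toward MCF10A for 0.

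The 11 lncRNA genes that host snoRNAs in their introns all fell in MCF10A (median -0.46). In HCT116 4 rose and 2 fell. SNHG1 fell in both lines, by 0.94 and 0.59 on the log2 scale, and SNHG32 had log2 fold changes of -0.62 and 0.75. Of 77 tested proteins of the mitochondrial ribosome, 62 fell and 0 rose in MCF10A (median -0.40). In HCT116 22 of 76 rose and 11 fell (median 0.05), counts whose higher share is near the 25.3% of all genes. MRPS17 was at 1.06 there and MRPS34 at -0.72, and MRPS17 averaged only 4.19 CPM in HCT116 NIR.

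Other genes with TOP mRNAs, mostly translation factors, were also counted. Of 21 tested, 13 fell and 2 rose in MCF10A, and 5 rose and 5 fell in HCT116, the latter near the shares of all genes. HNRNPA1 and NPM1 had log2 fold changes of -0.95 and -0.85 in MCF10A and of -0.81 and -0.47 in HCT116. TPT1 (0.37) and EEF1A1 (0.08) rose in MCF10A, and EEF1D rose by 0.64 in HCT116. Among 10 regulators of ribosomal protein synthesis, 4 fell and 2 rose in MCF10A, and 1 fell and 5 rose in HCT116, against 29.2% and 26.2%, and 27.2% and 25.3%, of all genes. MYC, which activates ribosomal protein and biogenesis genes, averaged 366 ± 9.39 CPM before and 311 ± 3.13 CPM after irradiation of MCF10A, against 262 ± 8.19 and 409 ± 7.43 CPM for HCT116 (log2 fold changes -0.26 and 0.65). The log2 fold changes of LARP1 were -0.44 and 0.27. For both, the difference between the lines was called (0.83 and 0.62).

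**Figure D5:**
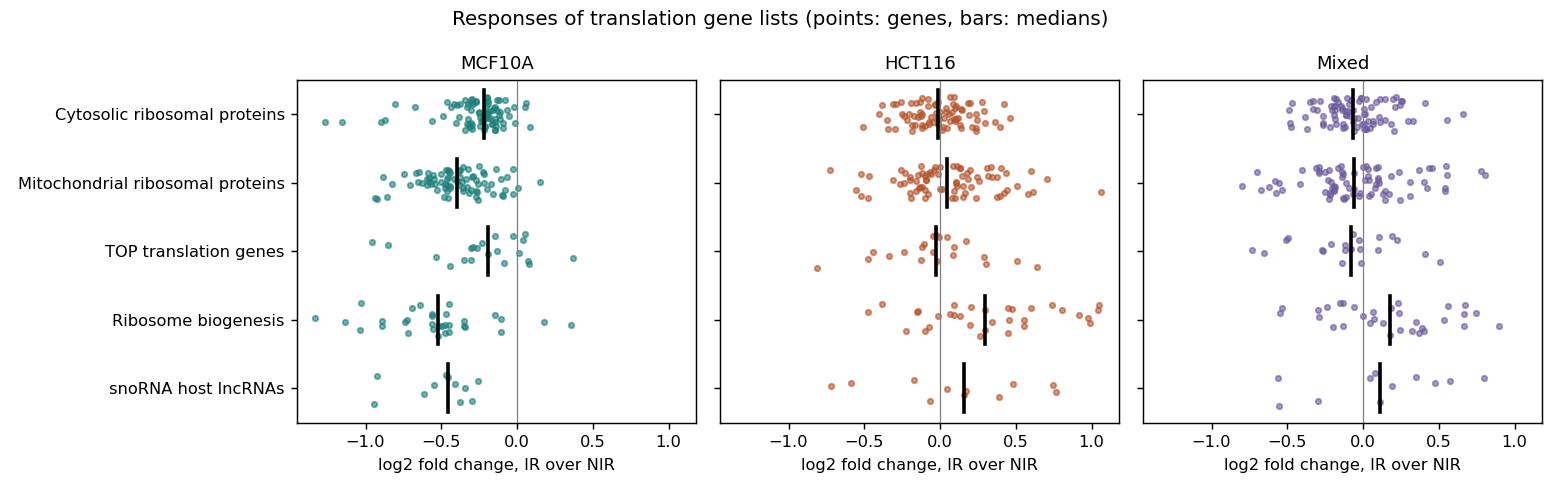
Log2 fold change with IR over NIR of single genes (points) in 5 gene lists, with the median of each list as a bar, in MCF10A, HCT116 and mixed cultures. In MCF10A all 5 medians lie below 0, from -0.19 for TOP translation genes to -0.52 for ribosome biogenesis, and in HCT116 the biogenesis median is 0.30 and that of the ribosomal proteins -0.02.

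Responses were also set out by the presence of a pyrimidine run at the annotated start, with no test of the difference. In MCF10A the median log2 fold change was -0.21 for the 48 members with a run and -0.25 for the 18 tested without one, and 41 and 15 of them fell. In HCT116 8 of the 48 rose and 10 fell, and of the 18, 3 rose and 5 fell. As the printed sequences show, RPL22L1, which fell most in MCF10A, and RPL22, which moved little, both held a run, as did RPL27A and RPL39, which rose in HCT116, and RPS14 and RPSA, which fell. In HCT116, RPSA was not called without NIR replicate 2, NIR replicate 3 or IR replicate 3. The absence of a run in these windows says only that its letters were not there.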

How the data were processed

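The authors deposited raw counts per gene symbol for each of the 18 libraries. Per the submitters' processing notes, fastp, STAR and featureCounts were used with GRCh38. Versions, annotation, strand setting and handling of multi-mapping reads are not given in the sources used here. Per the labels' protocols the libraries were stranded and made from poly(A) RNA. Of the count values from 1 to 10, 68.3% were even, so each fragment may have been counted as a pair of mates, and counts halved were tried as an alternative.

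CPM was computed here as a count divided by the library total, times 1000000. Each comparison was fitted over its own libraries with edgeR 4.0.16 in R 4.3.3: filterByExpr, library totals recomputed after that filter, TMM factors, and the quasi-likelihood test, with Benjamini-Hochberg adjustment over all genes tested and a threshold of 0.05. The recomputed totals were chosen after the data were seen. Response differences are interaction terms. The fit of MCF10A IR against MCF10A NIR was tested on simulated data, and the other fits were not.

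The genes named were members of at least 10 CPM with the largest changes in each direction, plus paralogs, their partners and members with known roles. Others are named only to spell out a count or as stated. Some members are counted but not reported by name here. The members and lists were chosen with earlier results of these data known. Alternatives were upper-quartile factors, library size only, TMM without the members, tables without mitochondrially encoded genes, DESeq2 1.42.0, no filter, counts halved, all 18 libraries in 1 fit, a replicate block, and leaving out each library. Transcript lengths, positions and overlaps came from GENCODE v29 and start sequences from RefSeq. Residuals of same-numbered samples correlated at -0.042 to 0.108 over 45 pairs, so the numbers were not taken to pair them.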

Additional observations from a re-analysis of the deposited data

Results flagged for a closer look

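The response to irradiation differed between HCT116 and MCF10A in the test of the difference itself for the members named here and for RPS27L. Values are the HCT116 minus the MCF10A log2 fold change. It was largest for RPL22L1, at 1.40. Others were RPL26L1 at 0.88, RPL23A at 0.82, RPL7L1 at 0.65, RPL26 at 0.57 and RPL37 at 0.52. Smaller positive differences were found for RPL27A (0.44), RPL30 (0.44), RPL36AL (0.42), RPS27 (0.42), RPL22 (0.38), RPL39 (0.30) and RPL10A (0.25). Of these, RPS27 was not called in DESeq2. RPL39 was not called without MCF10A NIR replicate 2, HCT116 NIR replicate 1, HCT116 NIR replicate 2 or HCT116 IR replicate 1. RPL10A was not called without MCF10A NIR replicate 2 or HCT116 NIR replicate 1. Those of RPL8, RPL10 and RPS14 were negative, at -0.67, -0.31 and -0.28. RPS14 was not called in 11 alternative settings, DESeq2 and the fit of all 18 libraries among them. RPL10 was not called without MCF10A IR replicate 2 or 3 or HCT116 IR replicate 2. RPS27L, outside the module, had a difference of 0.66. The lines also differ in tissue, transformation and medium, and these cannot be told apart.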

How the results depend on the processing

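Of 2739 values of named genes under alternatives, 2512 kept direction and side of the threshold, 225 kept direction and lost the call, and 2 reversed. Both reversals were RPL23 in HCT116 NIR against MCF10A NIR (-0.15), at 0.0497 with upper-quartile factors and 0.0459 with library size only. In that comparison 47 members were higher and 6 lower under each of these, and 31 were lower with no filter. For IR lines, library size only gave 74 higher and 2 lower. For the response difference between lines, the count higher was 40 without mitochondrially encoded genes, 45 with no filter and 40 with all 18 libraries. The count lower was 3 without mitochondrially encoded genes, 3 with library size only and 2 with all 18 libraries. In MCF10A, 3 members were higher with upper-quartile factors. Mixed NIR against HCT116 NIR gave 2 lower with DESeq2, 9 with no filter and 3 with all 18 libraries. Mixed IR against HCT116 IR gave 5 lower with all 18 libraries, and the Mixed minus HCT116 response gave 1 lower with DESeq2. The numbers did not pair the samples. With a replicate block 1 member was higher in MCF10A and 5 were lower in Mixed NIR than in HCT116 NIR. Without mitochondrial counts the module's share was 3.91% in MCF10A IR, 5.57% and 5.42% in HCT116, and 5.09% and 4.93% in mixed cultures.

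Leaving out 1 library at a time gave 0 to 3 higher and 52 to 73 lower in MCF10A, 5 to 28 and 11 to 28 in HCT116, and 9 to 13 and 22 to 37 in mixed cultures. Between lines it gave 15 to 33 and 14 to 33 for NIR, and 38 to 50 and 9 to 12 for IR. It gave 21 to 39 and 1 to 9 for the response difference. The count lower was 0 to 5 for Mixed NIR and 11 to 38 for Mixed IR against HCT116, and 0 to 1 for their response difference. The cause of these changes was not tested. With 3 libraries a group, small changes near the threshold are not firm, and members under 15 CPM are limited by depth and annotation.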
